A study of Mus musculus with 2 samples.

Results

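Platelets are cell fragments without a nucleus that megakaryocytes release into blood. They carry mRNA from the megakaryocyte and make little new RNA, bind injured vessel walls and tumor cells through adhesion receptors, and release chemokines and growth factors from their alpha granules. The lung vasculature holds many platelets, and platelets carry PECAM1 on their surface, so a PECAM1 sort of digested lung can collect them along with endothelial cells (ECs).

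The platelet barcodes described here were droplets of 2 libraries of sorted mouse lung that held platelet mRNA and lacked the leading EC transcripts. A barcode was kept when it had 200 to 5000 detected genes and under 20% mitochondrial unique molecular identifiers (UMIs, each 1 captured RNA molecule). It also needed 0 UMIs of Cdh5 and of Cldn5, at most 1 UMI of Egfl7, and at least 3 of the 7 platelet genes Pf4, Ppbp, Itga2b, Gp9, Nrgn, Treml1 and Clec1b. Of 22871 barcodes within the limits on genes and mitochondrial UMIs, 1173 met the rule, 410 of 11573 in the control library and 763 of 11298 in the metastatic library. Since the barcodes were selected on these 10 genes, the levels of the 10 genes are given as a description only.

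Both groups were wild-type (WT) C57BL/6 mice, taken 6 h after a tail vein injection. Control mice received PBS, and metastatic mice received 200000 B16-F10 cells each, a mouse melanoma line. Lungs were digested, red blood cells were lysed, and Pecam1-PE positive cells were captured with the 10x Genomics 3′ method. Each group was 1 library made from 2 pooled mice, so no difference between the groups has a replicate check, and every interval below is a 95% interval that covers counting error only.

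In all, 67929614 UMIs were counted in control and 64733724 in metastatic lung. The same barcode passed the limits on genes and mitochondrial UMIs in both libraries 334 times. No barcode was a platelet barcode in both, and 0 control and 3 metastatic platelet barcodes passed these limits in the other library, each with more UMIs there (1582, 1490 and 7538 against 356, 1413 and 446). The labels name the cells ECs, and ECs did lead the sort: barcodes with at least 1 UMI of Cdh5 and of Cldn5 and fewer than 3 of the platelet genes numbered 6944 and 6087. A further 720 and 1194 barcodes held at least 3 platelet genes together with Cdh5 or Cldn5 and so lay outside the rule. Barcodes with at least 3 detected lymphocyte genes, 54 and 65 in number, served as a cell type that should lack platelet and EC transcripts. They also had to meet the rule's limits on Cdh5, Cldn5 and Egfl7. Their low EC levels are therefore in part set by that choice. Lymphocyte levels below are over the 53 and 63 of these that were not platelet barcodes themselves, unless stated. Barcodes of 11 to 50 UMIs, called low-UMI barcodes below, gave a reading of RNA outside cells. They held the melanoma list at 6295 CPM (UMIs of a gene or list scaled to a common total of all UMIs of the set) in the control library, whose mice received no tumor cells, and at 6275 CPM in the metastatic library, so they were not a reading of the RNA of these lungs alone, and the source of that RNA was not tested.

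Platelet barcodes made up 3.54% (3.21 to 3.90) of the filtered barcodes in the control library and 6.75% (6.30 to 7.23) in the metastatic library. The ratio of these shares was 1.91 (1.70 to 2.14). Against ECs the numbers were 5.52 and 11.2 platelet barcodes per 100 barcodes with Cdh5 and Cldn5. In a tissue digest, fewer or more platelets and less or more RNA per platelet cannot be told apart, and the share also rests on the sort gate. Whether the lungs were perfused before digestion, and alike in both groups, is not given in the sources used here, and perfusion would change the number of platelets.

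Most platelet barcodes were small. The median barcode held 664 UMIs and 354 genes in the control library and 582 UMIs and 316 genes in the metastatic library, against medians of 6035 and 6210 UMIs in ECs. Together they took 0.597% and 1.01% of all UMIs of the libraries. The median share of mitochondrial UMIs was 2.50% and 3.16%. With the minimum of 300 genes that the study used for quality control, 248 and 425 of the platelet barcodes remained. With its minimum of 1000 genes for integration, 15 and 21 remained.

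The metastatic library held more platelet barcodes of every size, by a larger ratio among small ones. Between 200 and 299 genes there were 162 control and 338 metastatic platelet barcodes, and between 300 and 499 genes there were 122 and 265. Between 500 and 999 genes the numbers were 111 and 139, and from 1000 genes they were 15 and 21, the last a thinly filled bin. Just under the limit, from 100 to 199 genes, 198 and 389 barcodes met the other criteria. The ratio of the shares was 1.38 (1.09 to 1.74) with a minimum of 500 genes.

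**Figure D1:**
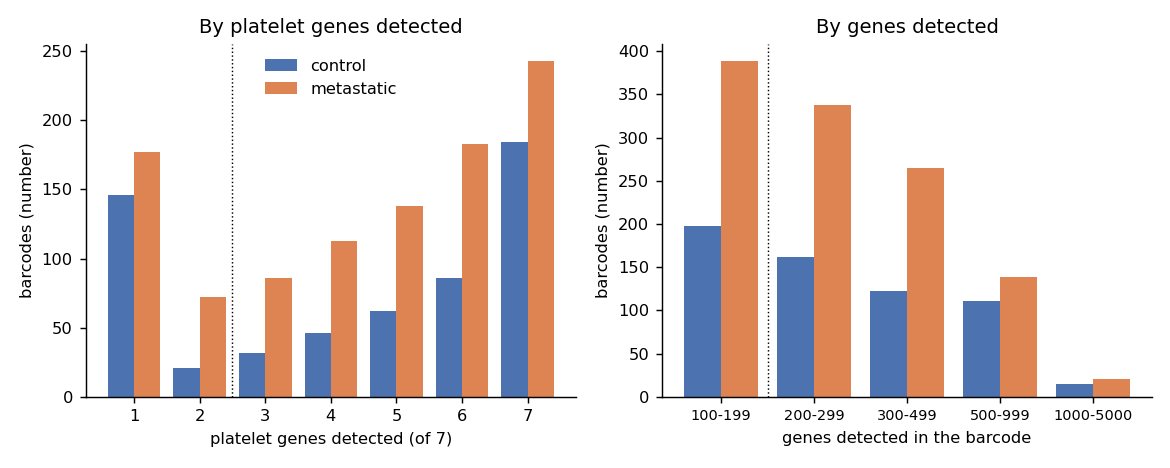
Number of barcodes (y axis) by the number of the 7 platelet genes detected (left, among barcodes of 200 to 5000 genes without EC rule genes) and by the number of genes detected (right), with 1 bar per library. Barcodes left of the dotted lines lie outside the rule, and barcodes with 0 platelet genes (1522 control and 1202 metastatic) are not drawn. The metastatic bars drawn are higher, by 243 against 184 at 7 platelet genes and by 338 against 162 at 200 to 299 genes.

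The number of platelet genes detected, a value the rule used, rose with the UMIs of a barcode. Of barcodes without the EC rule genes, 184 control and 243 metastatic barcodes held all 7 platelet genes, at medians of 1156.5 and 1149 UMIs. Those with 3 of the 7 genes, just inside the rule, numbered 32 and 86, and those with 2, just outside, numbered 21 and 72. The ratio of metastatic to control numbers was 1.32 at 7 genes, 2.13 at 6 genes and 2.69 at 3 genes. Among the lymphocyte barcodes, which were larger (medians of 4374 and 4552 UMIs), 1 of 54 (1.85%, 0.0469 to 9.89) and 2 of 65 (3.08%, 0.375 to 10.7) held at least 3 of the platelet genes. In the platelet barcodes the 7 genes reached summed levels of 53532 and 52639 CPM. They were at 25.2 and 48.4 CPM in the lymphocyte barcodes that were not platelet barcodes, at 41.3 and 231 CPM in all 54 and 65, and at 663 and 533 CPM in low-UMI barcodes.

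Pf4 and Ppbp, neighboring chemokine genes on chromosome 5 (Ppbp at chr5:90768518-90770063 and Pf4 at chr5:90772435-90773383, plus strand, GRCm38), led the rule genes with Nrgn, which encodes a calmodulin-binding protein. Pf4 was detected in 97.6% of control and 98.6% of metastatic platelet barcodes, at 15592 and 16216 CPM. Ppbp stood at 11850 and 10611 CPM and Nrgn at 12649 and 13441 CPM. Clec1b, the receptor for podoplanin, stood at 5638 and 5173 CPM, Gp9 of the von Willebrand factor receptor at 3392 and 3127 CPM, Itga2b of the fibrinogen receptor at 2571 and 2387 CPM, and Treml1, an alpha granule membrane protein, at 1839 and 1685 CPM. The log2 ratios of metastatic over control lay between -0.16 for Ppbp and 0.09 for Nrgn. Pf4 gave 29.1% and 30.8% of the UMIs of the 7 genes in platelet barcodes and 28.4% and 31.6% in EC barcodes with platelet genes, both of them sets that were selected on these genes.

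**Figure D2:**
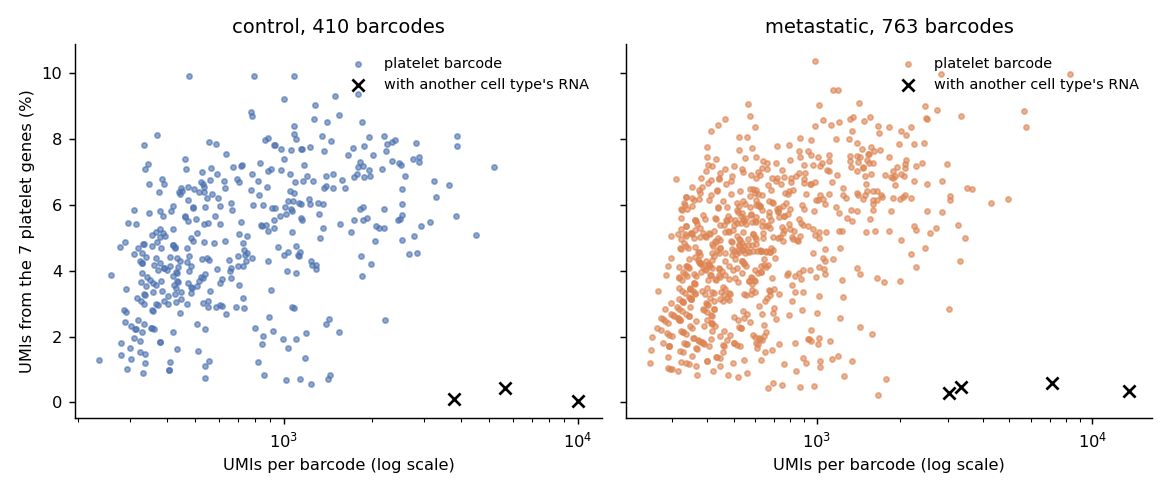
Share of UMIs from the 7 platelet genes (y axis, percent) against the UMIs of the barcode (x axis, log scale) for each control (left, 410) and metastatic (right, 763) platelet barcode. Crosses are the 3 and 4 barcodes that held many UMIs of another cell type, and they lie below the other barcodes of their size.

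A few barcodes that met the rule were led by another cell type. Counting barcodes with at least 4 detected genes and 20 UMIs of 1 lymphocyte, myeloid, epithelial or mesenchymal list, a definition chosen after the data were seen, there were 3 in the control and 4 in the metastatic library. The largest control barcode held 9998 UMIs with 218 of the monocyte and macrophage list and 4 of the platelet genes. The largest metastatic barcode held 13536 UMIs, of which 2331 came from the epithelial list and 46 from the platelet genes. The others were a second macrophage-gene barcode and a Cd74-led barcode in the control library, and 2 T or NK cell-gene barcodes and a Col3a1-bearing barcode in the metastatic library. Malat1 was the first or second gene of all 7. No doublet caller was run, and these barcodes are named again wherever they set a value.

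The name given to these barcodes, platelets without endothelial RNA, held for the rule genes only. At least 1 UMI of a 16-gene EC list was found in 386 of 410 control (94.1%) and 705 of 763 metastatic (92.4%) platelet barcodes. The summed level of the list was 4381 CPM (4179 to 4589) and 4486 CPM (4325 to 4652), against 25491 and 23889 CPM in ECs, 755 and 646 CPM in lymphocyte barcodes and 6473 and 7378 CPM in low-UMI barcodes. Pecam1 and Esam of this list are also made by platelets, and they contributed 362 and 303 CPM in the control library. Hpgd, an enzyme that breaks down prostaglandins, gave the most, with 1205 and 1021 CPM. Its level was 7108 and 5394 CPM in ECs and 138 CPM in control lymphocyte barcodes. Ramp2, a co-receptor for adrenomedullin, stood at 614 and 668 CPM. Egfl7, capped by the rule, was at 1 UMI in 113 and 186 platelet barcodes, and a further 21 and 48 barcodes with 2 UMIs lay just outside. The barcodes are called platelet barcodes in what follows.

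Nuclear RNA was low in these barcodes. Malat1, a nuclear long noncoding RNA, stood at 2611 and 3489 CPM in platelet barcodes, against 44443 and 43997 CPM in ECs, 34905 CPM in control lymphocyte barcodes and 24328 CPM in control low-UMI barcodes. The 4-gene nuclear list, led by Malat1, stood at 1603 and 1822 CPM without the 7 barcodes led by another cell type. Low-UMI barcodes had 15.8-fold and 14.7-fold more of it, whereas they had 1.41-fold and 1.59-fold more of the EC list.

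Apart from the rule genes, Tmsb4x was the most abundant mRNA of the platelet barcodes, and the 20 most abundant also held actin, myosin, ferritin and G protein genes. Tmsb4x, the actin-sequestering thymosin beta 4 (chrX:167207093-167209315), reached 71025 CPM (70207 to 71850) in the control and 75465 CPM (74799 to 76135) in the metastatic library, against 2426 and 2715 CPM in ECs. Actb stood at 23449 and 21109 CPM, and Myl6, a myosin light chain, at 11697 and 11302 CPM. Ctla2a, a cathepsin inhibitor, reached 19307 and 22023 CPM. Fth1 and Ftl1, the ferritin chains, stood at 12432 and 9405 CPM in the control library and at 13914 and 9829 CPM in the metastatic library. The tetraspanin Cd9 and the G protein subunit Gng11 followed with 10499 and 9338 CPM in the control library. Gm42418, which overlaps ribosomal RNA and so may count it, stood at 22046 and 26922 CPM and at 16445 and 17357 CPM in ECs. Tpt1 and Ybx1 were abundant in ECs as well, with ratios of platelet to EC barcodes of 1.02 and 1.82 in the control library.

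Outside the rule genes, the 20 transcripts highest relative to ECs held platelet receptors, a tubulin and a transcription factor of the megakaryocyte lineage among genes of other roles. Of 2237 genes with at least 50 UMIs over the platelet barcodes of both libraries, 575 (25.7%) lay at least 2-fold above ECs in both libraries. Since the ECs were defined as having fewer than 3 of the platelet genes, these ratios describe the sets and are not tested. Tubb1, the platelet beta-tubulin, stood at 695 and 688 CPM, which was 3835-fold and 3882-fold above ECs. Gp5 of the von Willebrand factor receptor stood at 1127 and 1014 CPM, 3315-fold and 2355-fold above ECs. F2rl2, the thrombin co-receptor PAR3, was 2811-fold and 1449-fold higher. These folds rest on few EC UMIs: 8 and 7 for Tubb1, 15 and 17 for Gp5, and 6 and 9 for F2rl2. Gata1, the transcription factor of megakaryocytes and erythroid cells, was rare (44 and 58 UMIs) but had only 1 and 2 UMIs in ECs. The RNA-binding protein gene Rbpms2 and the immunoglobulin-family receptor Ly6g6f, with 382 and 107 control UMIs, were also among the 20 highest. The collagen receptor Gp6, coagulation factor F5 and Slfn14, an endoribonuclease of the megakaryocyte lineage, were also among the 20.

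**Figure D3:**
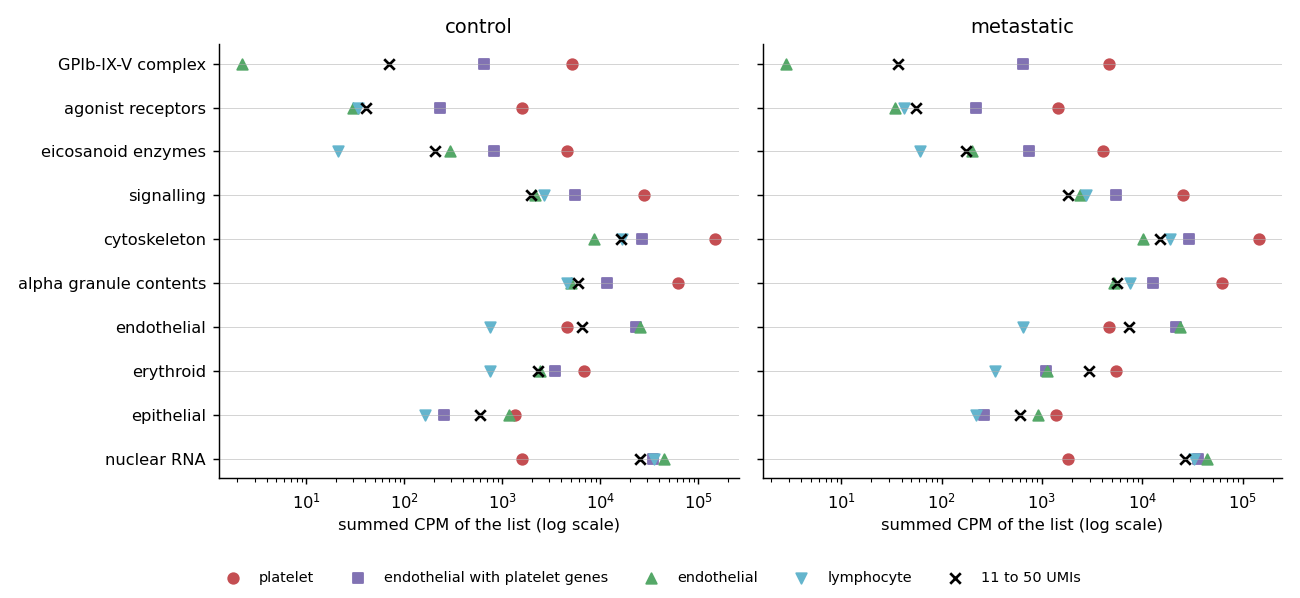
Summed CPM of each gene list (x axis, log scale) in platelet barcodes without the 7 barcodes led by another cell type, EC barcodes with platelet genes, ECs, lymphocyte barcodes and low-UMI barcodes, for the control (left) and metastatic (right) library. A list at 0 CPM is not drawn. The platelet lists are highest in platelet barcodes, where the EC list is between lymphocytes and ECs, and the nuclear list is lowest in platelet barcodes. The GPIb-IX-V and alpha granule lists hold rule genes, so their place was set in part by the selection.

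By role, the receptors for the vessel wall were nearly all measured, whereas most receptors for soluble agonists were not. All 4 genes of the GPIb-IX-V complex, which binds von Willebrand factor, passed 50 UMIs: Gp9 and Gp5 led, and Gp1ba and Gp1bb stood at 182 and 185 CPM in the control library. Among adhesion receptors 18 of 19 passed, and 13 of them were at least 2-fold above ECs in both libraries, beside 575 (25.7%) of all 2237 genes. These counts include rule genes, such as Itga2b and Clec1b here and Gp9 in the GPIb-IX-V complex. For the rule genes, passing and lying above ECs were set by the selection, so the counts are a description only. Cd36, the thrombospondin and fatty acid receptor, was an exception, with 281 and 241 CPM in platelet barcodes and 1654 and 1499 CPM in ECs. Of 12 agonist receptors 5 passed, among them the ADP receptors P2ry12 (298 and 319 CPM) and P2ry1 (106 and 87.5 CPM), the ATP channel P2rx1 (303 and 283 CPM) and F2rl2. The thrombin receptor F2rl3 had 7 and 6 UMIs, and Adra2a and Htr2a had none in either library, a count that allows up to 3 UMIs of 405647 and of 651136.

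Granule cargo was broad. Of 20 alpha granule genes 17 passed and 14 were at least 2-fold above ECs in both libraries, beside 25.7% of all 2237 genes. The rule genes Pf4 and Ppbp are counted in all of these numbers, and their place above ECs was set by the selection. Thbs1, thrombospondin 1, stood at 1393 and 1282 CPM, Clu at 2465 and 2453 CPM, the proteoglycan Srgn at 4415 and 4113 CPM, and Vwf at 695 and 679 CPM against 249 and 262 CPM in ECs. Alox12, the platelet lipoxygenase, stood at 2685 and 2205 CPM and was at 1.99 and 3.17 CPM in ECs. Ptgs1, the cyclooxygenase of thromboxane synthesis, stood at 333 and 367 CPM, close to its 278 and 182 CPM in ECs.

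Between the groups, platelet mRNA levels were close. Over the 2237 genes the median log2 ratio of metastatic over control was -0.03, and 95% of genes lay between -0.75 and 0.78. Genes at least 2-fold higher in metastatic platelet barcodes numbered 27 (1.21%), and genes at least 2-fold lower numbered 15 (0.671%). Of the genes measured for adhesion, agonist receptors, granules, signalling, cytoskeleton, eicosanoid enzymes and transcription factors, only Ccl5 lay beyond 2-fold, and 73 of its 83 metastatic UMIs came from 1 T or NK cell-gene barcode.

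The medians of the platelet lists lay at or below that of all genes, apart from the adhesion receptors. The median log2 ratio was -0.15 for the GPIb-IX-V complex, -0.01 for adhesion receptors, -0.19 for agonist receptors and -0.03 for alpha granule contents. The summed level of the alpha granule list went from 58571 to 60344 CPM, a log2 ratio of 0.043 (0.020 to 0.066). Ctla2a of this list alone went from 19307 to 22023 CPM, and the sum also holds the rule genes Pf4 and Ppbp. Of the alpha granule genes measured, 7 lay above 0 and 10 below. The median was -0.24 for granule biogenesis and release, -0.23 for signalling, -0.14 for the cytoskeleton, -0.14 for eicosanoid enzymes and -0.28 for megakaryocyte transcription factors. In signalling, 14 of 19 genes were below 0 and 8 had intervals below 0, beside 1230 and 233 (10.4%) of all 2237 genes. Among them Rasgrp2, the exchange factor that activates Rap1 in platelets, went from 1260 to 975 CPM, a log2 ratio of -0.37 (-0.54 to -0.20). Bin2, a membrane-bending protein, went from 1085 to 749 CPM, with a log2 ratio of -0.53 (-0.72 to -0.34). The integrin activators Fermt3 and Tln1 had log2 ratios of -0.28 and -0.26. In the cytoskeleton Pfn1 and the platelet alpha-tubulin Tuba4a had log2 ratios of -0.42 and -0.44. Rab27b, which tethers dense granules, stood at -0.42 (-0.67 to -0.18). Nfe2 stood at -0.35 and Mef2c at -0.75 on the same scale. By size, without the barcodes led by another cell type, Nfe2 was at 686 and 687 CPM in barcodes of at least 1000 UMIs. Under 500 UMIs it was at 160 and 87.8 CPM, from 9 and 10 UMIs.

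These list values moved with the barcodes kept. Each median here is over genes with at least 50 UMIs in the barcodes kept, so the genes can differ from those of the medians above. Without barcodes that held 2 or more genes of a leukocyte, erythroid or epithelial list, 32 and 148 were left. There the medians stood at 0.80 for the GPIb-IX-V complex, 0.45 for granule biogenesis and release, 0.21 for signalling and 0.041 for the cytoskeleton. With 32 control barcodes few genes of a list can reach 50 UMIs, and the GPIb-IX-V list has only 4 genes, the rule gene Gp9 among them. No interval was computed for these medians, so they are not read as a reversal of a list. In the 143 control and 179 metastatic platelet barcodes of 1000 UMIs or more, list medians were -0.06 for signalling, 0.00 for the cytoskeleton, -0.05 for transcription factors and 0.05 for agonist receptors. Among the 147 and 298 barcodes with under 500 UMIs it was -0.32 for signalling and -0.18 for the cytoskeleton. The shifts of single genes were not tested against size further.

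**Figure D4:**
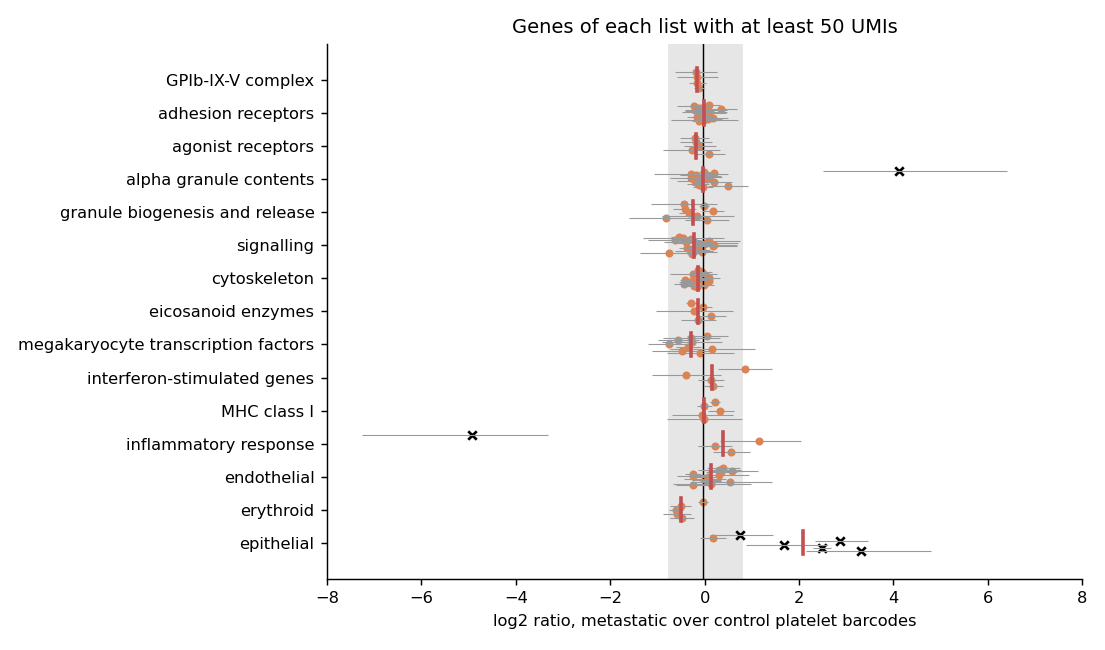
Log2 ratio of metastatic over control platelet barcodes (x axis) for every list gene with at least 50 UMIs, by list, with 95% counting intervals. Red bars are list medians, the black line is the median of all 2237 genes (-0.03), the gray band holds 95% of them, and crosses are genes with at least 50% of their UMIs from 1 barcode in either library. Ccl5, Cxcl2 and the surfactant genes stand apart as crosses.

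Single barcodes set 8 of the 10 highest ratios and 2 of the 10 lowest, counting genes with at least 50% of their UMIs in 1 barcode of the library where they were higher. Of the 10 highest, Slc34a2, Sftpd, Sftpa1, Cbr2, Sftpc, Ctsh and Sftpb, genes of alveolar type 2 cells and other epithelium, had 76.6% to 94.8% of their metastatic UMIs in 1 barcode. Sftpc went from 251 to 2243 UMIs, 1811 of them in that barcode, and without the 7 barcodes led by another cell type the epithelial list stood at 1336 and 1375 CPM. Of the 10 lowest, all 57 control UMIs of the chemokine Cxcl2 and 91 of 113 of the macrophage gene Chil3 came from 1 control barcode. Ptprc, the pan-leukocyte gene CD45, had 29 and 21 UMIs in 5 and 6 barcodes.

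Akap12 and Eif4a1 were the exceptions among the 10 highest ratios. Akap12 (chr10:4266380-4359470, plus strand), a scaffold for protein kinases A and C that is also made by ECs, went from 15 UMIs in 13 of 410 control platelet barcodes to 190 UMIs in 101 of 763 metastatic ones. No metastatic barcode gave more than 17 of its UMIs. Its level was 37.0 CPM (20.7 to 61.0) in control and 292 CPM (252 to 336) in metastatic platelet barcodes, a log2 ratio of 2.98 (2.22 to 3.85). In ECs it stood at 241 and 485 CPM, a log2 ratio of 1.01, and in EC barcodes with platelet genes at 209 and 714 CPM. Metastatic levels were higher in each of these sets, and the counting interval in platelet barcodes lay above the ratio in ECs. In lymphocyte barcodes Akap12 stood at 25.2 and 16.1 CPM (6 and 5 UMIs), and in low-UMI barcodes at 126 and 130 CPM. Platelet barcodes with up to 2 EC list genes had 49.2 and 278 CPM (7 and 67 UMIs). Those with more had 30.4 and 300 CPM (8 and 123 UMIs). The control values rest on few UMIs, and the number of EC genes detected also depends on barcode size. The split therefore cannot tell EC RNA from size, and the source of the Akap12 UMIs was not tested. The log2 ratio was 3.22 in barcodes of at least 1000 UMIs and 2.97 without the 7 barcodes led by another cell type.

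Eif4a1, an RNA helicase of translation initiation, followed with 14 UMIs in 11 control and 70 UMIs in 63 metastatic platelet barcodes, a log2 ratio of 1.64 (0.80 to 2.58). It stood at 294 and 334 CPM in ECs. The 15 control UMIs of Akap12 and the 14 of Eif4a1 are few, and with no second library their spread between mice is unknown. Of the lower genes spread over many barcodes, Celf2, a splicing regulator, went from 57 to 36 UMIs, a log2 ratio of -1.35 (-1.99 to -0.72), and Tmem131l from 34 to 19 UMIs, -1.52 (-2.41 to -0.67). Chd9, Rin2, Dnajb9, Borcs6 and Commd7 lay between -1.35 and -1.14. Slfn14, Ly6g6f and Rbpms2, among the genes highest relative to ECs, stood at -0.96 (-1.62 to -0.31), -0.71 (-1.11 to -0.31) and -0.58 (-0.79 to -0.38). Among barcodes of at least 1000 UMIs Rbpms2 stood at -0.25. Among those under 500 UMIs its direction turned, with 196 CPM in control and 281 CPM in metastatic barcodes, from 11 and 32 UMIs.

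Most genes of the inflammatory and interferon lists had under 50 UMIs. The inflammatory list stood at 712 and 731 CPM, against 2937 and 3107 CPM in ECs. Of its 18 genes 4 passed, among them Cxcl2, whose 57 control UMIs all came from 1 barcode. Il1b, whose mRNA human platelets are known to hold, had 10 and 2 UMIs. The NF-kappa-B inhibitor Nfkbia went from 187 to 276 CPM, a log2 ratio of 0.56 (0.17 to 0.97), and the leukocyte adhesion ligand Icam1 from 16 to 57 UMIs, 1.15 (0.33 to 2.05). Both were several times higher in ECs, with 1254 and 1192 CPM for Nfkbia and 272 and 366 CPM for Icam1. Of 12 interferon-stimulated genes 4 passed, with Bst2, which tethers viruses, at 0.85 (0.29 to 1.44) and Ifit1 at -0.39 (-1.11 to 0.34). The 12 genes summed to 1578 and 1803 CPM, against 3436 and 4077 CPM in ECs and 348 and 455 CPM in lymphocyte barcodes. The directions of Nfkbia, Icam1 and Bst2 turned, to -0.53, -0.53 and -0.33, in the 32 control and 148 metastatic barcodes with fewer than 2 genes of another list. Icam1 had only 16 control UMIs over all platelet barcodes, so its value in those 32 rests on few. No interval was computed for single genes there, and whether a turn exceeds counting error was not tested. The 5 of 8 MHC class I genes that passed had a median log2 ratio of -0.01, 2 of them above and 3 below 0. B2m went from 3114 to 3615 CPM, a log2 ratio of 0.22 (0.12 to 0.32), and H2-K1 from 409 to 516 CPM, a log2 ratio of 0.33 that turned to -0.55 in those 32 and 148 barcodes. Genes induced by glucocorticoids had a median of -0.02 over the 5 of 10 that passed, with the metallothionein Mt1 at 0.74 (0.17 to 1.35) and Tsc22d3 at -0.51 (-0.99 to -0.02). The part of EC RNA in these values was not tested.

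RNA of blood and lung cells other than ECs was at low levels with some exceptions. The hemoglobin genes led the erythroid list, which stood at 6579.6 CPM (6332 to 6834) in control and 5319.9 CPM (5144 to 5500) in metastatic platelet barcodes, against 2418 and 1133 CPM in ECs and 751 and 339 CPM in lymphocyte barcodes. Its log2 ratio was -0.31 (-0.38 to -0.23). Hba-a1 stood at 2936 and 2847 CPM in platelet barcodes and at 575 and 269 CPM in ECs. Lyz2, lysozyme M, was found in 336 of 410 and 590 of 763 platelet barcodes at 3695 and 3247 CPM, against 178 and 115 CPM in ECs and 515 CPM in control low-UMI barcodes. Other macrophage genes did not follow it: Csf1r had 5 and 4 UMIs, Cd68 had 2 and 3, and C1qa had 2 and 4. Laptm5 (947 and 900 CPM) and Gsn (1198 and 1172 CPM), placed in the pan-leukocyte and mesenchymal lists, were likewise found in 197 and 335 and in 214 and 321 platelet barcodes. Of the neutrophil list 15 and 12 UMIs were found in all. The melanoma list, which had 5 and 15 UMIs, was at 12.3 and 23.0 CPM, a log2 ratio of 0.90 (-0.63 to 2.72), so that a difference between the groups was not detectable at this depth. Low-UMI barcodes held this list at 6295 and 6275 CPM, as given above.

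Barcode size divided the platelet barcodes further. Barcodes of at least 1000 UMIs (140 control and 175 metastatic, without the 7 barcodes led by another cell type) were compared with those of under 500 UMIs (147 and 298). At least 2-fold higher in the larger barcodes in both libraries were 190 genes (8.49%), and at least 2-fold lower were 225 (10.1%). A barcode of few UMIs passes 200 detected genes only when its UMIs are spread over many genes, so these ratios are a description of what the rule kept.

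Regulatory and signalling mRNAs of the lineage took a larger share of the UMIs in the larger barcodes. Nfe2, the transcription factor of platelet release, went from 160 CPM in smaller to 686 CPM in larger control barcodes, and from 87.8 to 687 CPM in metastatic ones, with log2 intervals of 1.14 to 3.25 and 2.06 to 4.05. Tubb1 had log2 ratios of 1.22 and 2.05, Tuba4a reached 1250.4 and 978 CPM in the larger barcodes, and Clec1b had 1.24 and 1.44. Nrgn and Tmsb4x hardly moved, with 0.09 and 0.14 for Nrgn and 0.12 and 0.14 for Tmsb4x. By list, the median log2 ratio of larger over smaller was 1.33 and 1.15 for transcription factors, 1.37 and 1.30 for granule biogenesis and release, and 0.93 and 1.32 for signalling. It was 0.33 and 0.72 for alpha granule contents, beside 0.03 and -0.05 for all genes tested.

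RNA of other cells took a larger share of the UMIs in the smaller barcodes. The EC list had medians of -1.36 and -1.42, with 11 of its 14 genes at least 2-fold lower in larger barcodes in both libraries. The hemoglobin gene Hbb-bs went from 4309 to 934 CPM in control and from 2642 to 500.2 CPM in metastatic barcodes, log2 ratios of -2.21 and -2.40. Its UMIs numbered 242 in the 147 smaller and 230 in the 140 larger control barcodes, and 301 in the 298 smaller and 158 in the 175 larger metastatic ones. The immediate early genes Atf3, Btg2 and Klf4 were also lower in the larger barcodes. Klf4 went from 338 to 48.7 CPM in the control library and from 307 to 66.5 CPM in the metastatic library. All 6 measured genes of the epithelial list were at least 2-fold lower in the larger barcodes in both libraries.

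**Figure D5:**
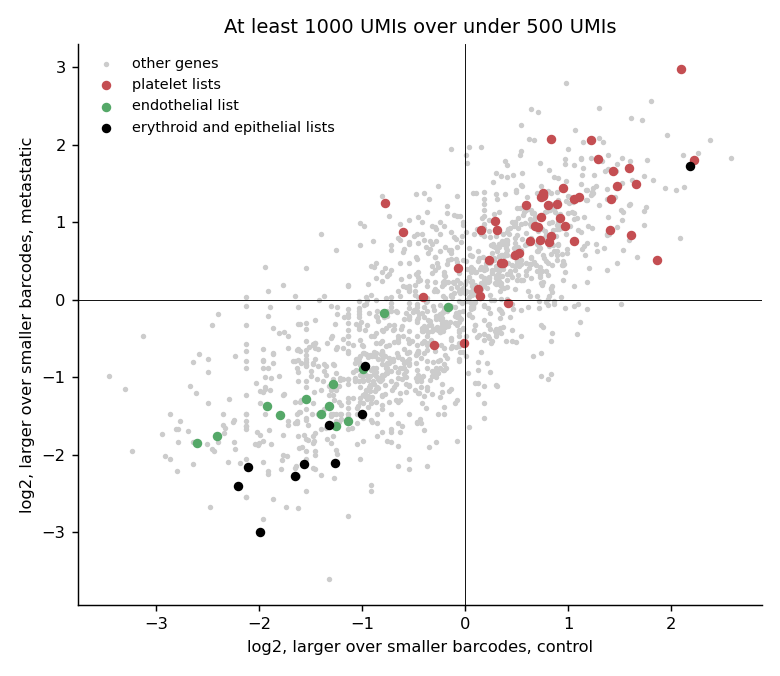
Log2 ratio of larger (at least 1000 UMIs) over smaller (under 500 UMIs) platelet barcodes in the control (x axis) and metastatic (y axis) library, for the 1458 genes with at least 5 UMIs in the smaller barcodes of each library. Points of both axes share no barcodes but share the rule. Most genes of the platelet lists lie above 0 on both axes, and most EC, erythroid and epithelial genes lie below.

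The depth of the barcodes was then made equal. Each barcode was thinned to 300 UMIs, which left out 12 control and 28 metastatic platelet barcodes. At that depth 68.3% and 62.7% of platelet barcodes held a gene of the GPIb-IX-V complex, against 0.302% and 0.404% of ECs. Gp9 of this complex is a rule gene, so that contrast was set in large part by the selection. Gp9 alone was found in 57.0% and 51.8% of platelet barcodes. Outside the rule, Gp5 was found in 22.4% and 19.5%, Gp1ba in 4.27% and 3.67% and Gp1bb in 4.27% and 4.63%, each against 0% of ECs. Signalling genes were found in 97.7% and 97.8%, and EC list genes in 74.9% and 71.7%, against 26.4% and 23.8% of lymphocyte barcodes. Without thinning, EC list genes were found in 94.1% and 92.4% of platelet barcodes. Erythroid genes were found in 86.2% of thinned control and 78.6% of thinned metastatic platelet barcodes.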

How the data were processed

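The authors counted UMIs per gene and barcode with Cell Ranger on mm10 and deposited them as raw counts with all 6794880 listed barcodes, uncalled and unnormalized. Per the file headers the matrices come from version 3.1.0; the aligner settings are not given in the sources used here. These sources conflict: the labels state the v2 kit and the study names an earlier Cell Ranger version, whereas the number of listed barcodes is that of a later kit, and which holds was not settled. Depth was 67929614 and 64733724 UMIs.

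The platelet barcodes and gene lists were chosen with earlier results of these data known. UMIs were summed per library and scaled to CPM (Python 3.11.15, NumPy 2.4.6, SciPy 1.17.1, pandas 2.3.3). With 1 library per group no test was run: shares carry exact Clopper-Pearson, CPM exact Poisson and ratios exact conditional binomial 95% intervals, and the ratio of shares a log-scale interval. Ratios were given for genes with at least 50 UMIs. Their calculation was checked on simulated counts drawn as independent UMIs, so the check does not cover UMIs that cluster in single barcodes. The genes named are those of the lists, the 10 highest and 10 lowest group ratios, the 20 most abundant and the 20 highest relative to ECs, while genes named by size or spread were chosen after their values were seen. Doublets were not called. Coordinates are from GENCODE M21 (GRCm38, the assembly of mm10). Alternatives were the gene minimum, platelet gene number, scaling, free RNA subtraction, shared barcodes and barcode size.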

Additional observations from a re-analysis of the deposited data

Results flagged for a closer look

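Barcodes with 100 to 199 detected genes lay outside the rule but carried platelet RNA. In the metastatic library 389 of them met the other criteria, against 198 in the control library, which is 1.02% (0.922 to 1.13) and 0.555% (0.480 to 0.638) of barcodes of that size. The platelet genes made up 3.75% and 3.71% of their UMIs, and the EC list 0.937% and 1.10%.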

How the results depend on the processing

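Of 197 recomputed summary values, 172 stayed within the counting interval of the reported value or, for a list median, within the typical half-width of its genes' intervals, and 25 moved. The ratio of shares of platelet barcodes was 1.38 with a minimum of 500 genes and 1.35 with all 7 platelet genes, the latter chosen after seeing the data. No recomputed ratio of shares was below 1. Where barcodes were removed, list medians are over genes with at least 50 UMIs in the barcodes kept, so the genes can differ between settings. Removing barcodes with 2 or more genes of another list left 32 control and 148 metastatic barcodes, and medians became 0.80 for the GPIb-IX-V complex, 0.45 for granule release, 0.21 for signalling, 0.041 for the cytoskeleton, -0.28 for interferon-stimulated genes and -0.51 for MHC class I. There the log2 ratios of Cbr2 (-1.79), Sftpc (-0.35), Chd9 (0.28), Gp9 (0.41), Clec1b (0.19), Icam1 (-0.53), Bst2 (-0.33), Nfkbia (-0.53), H2-K1 (-0.55), Bin2 (0.28), Tuba4a (1.10) and Actb (0.071) changed sign. No interval was computed for these medians and single-gene ratios, which rest on 32 control barcodes. Whether they exceed counting error was not tested. Subtracting low-UMI RNA at the share the EC list gave, 62.7% and 54.7% of UMIs, yielded -0.72 for interferon-stimulated, 0.40 for MHC class I and -0.66 for glucocorticoid-responsive genes, but the nuclear list allows at most 6.34% and 6.81% and the melanoma list 0.206% and 0.357%, so no statement rests on these values. MHC class I stood at 0.28 with no minimum of UMIs. With each barcode thinned to 300 UMIs the log2 ratios were -0.39 for the erythroid list, 0.30 for the epithelial, -0.31 for the mesenchymal, -0.10 for the monocyte and macrophage and 1.92 for the lymphocyte list, from 5 and 35 UMIs. Another random draw gave -0.40, 0.34, -0.20, -0.041 and 1.32, the last from 10 and 46 UMIs. With a minimum of 300 genes the epithelial and mesenchymal lists were at 2.38 and 0.25. The 7 barcodes led by another cell type and the limits of 500 and 1000 UMIs were also chosen after seeing the data. Without the 7 barcodes led by another cell type the values were 0.041 for the epithelial, -0.26 for the mesenchymal, -0.063 for the monocyte and macrophage and 0.42 for the lymphocyte list, and Sftpd (-0.96), Sftpa1 (-0.076), Sftpb (-0.43) and Ptprc (0.63) changed sign. With up to 1000 genes the same genes stood at -0.97, -0.12, -0.52 and 0.62, and Cbr2 at -0.065. Sftpb was at -0.32 as a mean of CPM per barcode. Under 500 UMIs agonist receptors had -1.14 from 1 gene, and Ccl5 (-0.020), Cbr2 (-0.70), Sftpb (-0.53), Chd9 (0.98), Rin2 (0.15), Ptprc (0.56), Tuba4a (0.073) and Rbpms2 (0.52) changed sign. At 1000 UMIs or more glucocorticoid-responsive genes had -0.71, and Ppbp (0.052) and Clec1b (0.018) changed sign. The 7 barcodes set the changes of the epithelial genes, since the alternative only removed them, and the cause of the others was not tested. No paired analysis was possible because each group had 1 library, and leaving out a replicate was not possible for the same reason.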
